A study of Mus musculus with 9 samples.

Results

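The lysyl oxidases and the other collagen-modifying genes described here are 10 of the 19938 mouse genes that could be named on the arrays. They were taken by symbol from a fixed list: Lox, Loxl1, Loxl3 and Loxl4 among the oxidases, Plod1 and Plod2 among the lysyl hydroxylases, P4ha1, P4ha2 and P4ha3 among the prolyl hydroxylase subunits, and the chaperone Serpinh1. All 10 had a probe set assigned to that symbol alone. Where a gene had more than 1 probe set, the one with the highest mean over the 9 arrays was used, which concerned Loxl4.

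RNA was compared between 3 kinds of C57BL/6 mouse cells, with 3 one-colour Affymetrix arrays each: dedifferentiated cardiac fibroblasts, which the series title ties to a protein-based method, C57 ES cells, and adult cardiac fibroblasts. The labels name no transgene, no added agent, no dose and no time, and the age of the animals is given only as adult. Whether the 3 arrays of each kind came from separate animals or cultures is not recorded, so the p-values measure array-to-array spread alone, which could be technical. The values are log2 expression values that are comparable for 1 gene between arrays, and carry no detection call; the number of arrays limits the precision.

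Collagen chains are modified while they fold in the endoplasmic reticulum. Prolyl 4-hydroxylases, built from an alpha subunit (P4ha genes) and the shared beta subunit P4hb, make the hydroxyproline that stabilises the triple helix, and lysyl hydroxylases (Plod genes) make the hydroxylysine used for glycosylation and cross-links. Serpinh1, also known as Hsp47, is a chaperone that binds the folded procollagen helix. After secretion, the copper enzymes of the lysyl oxidase family oxidise lysines of collagen and elastin, which starts the covalent cross-linking of fibres. Fibroblasts are the main source of fibrillar collagen in the heart, whereas early embryonic cells are known for making basement membrane collagen.

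The labels were set against marker genes before the comparisons. Against fibroblasts, dedifferentiated cells had all 10 fibroblast markers lower and all 8 pluripotency markers higher, and the same counts held for ES cells. Of the other lists, in dedifferentiated cells against fibroblasts, 3 of 6 smooth muscle genes were lower, 0 of 7 cardiomyocyte genes were called by limma (4 at an adjusted p under 0.05 without the size limit), 3 of 6 endothelial genes were higher and 1 lower, 1 of 7 macrophage genes was higher and 2 lower, and 4 of 8 parietal endoderm genes were higher. Over all genes 10.1% were called lower and 8.79% higher in that comparison. Without the size limit all 6 smooth muscle genes were lower, and 6 of 7 macrophage genes were lower and 1 higher. Likewise 4 of 6 endothelial genes were higher and 1 lower, and 7 of 8 parietal endoderm genes were higher and 1 lower. Of all 19938 genes, 4468 were lower and 4977 higher without that limit. Pairs of arrays correlated at 0.9818 to 0.9863 between dedifferentiated and ES cells, and at 0.9151 to 0.9234 between dedifferentiated cells and fibroblasts. Xist, the RNA of the inactive X chromosome, lay at 3.07 to 3.49 in dedifferentiated cells, 2.78 to 3.39 in ES cells and 7.24 to 7.39 in fibroblasts. The Y-linked Eif2s3y lay at 7.95 to 8.18 in dedifferentiated cells, 7.47 to 7.95 in ES cells and 3.45 to 3.69 in fibroblasts. By these RNAs the fibroblasts had the pattern of female cells, and the dedifferentiated and ES cells that of male cells. A difference from fibroblasts is therefore a difference between these cell samples and cannot be read as a change within the same cells. Words such as fell and rose below name such differences only.

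The first comparison was of dedifferentiated cells with the fibroblasts they are labelled as derived from. The lysyl oxidases were all far lower in dedifferentiated cells, P4ha3 was lower by 6.62-fold, and P4ha1 and Serpinh1 were lower by 2.03-fold and 2.43-fold. Plod1, Plod2 and P4ha2 stayed within 1 log2 unit of fibroblasts. A gene was called where it differed by at least 1 log2 unit with an adjusted p under 0.05 (limma over all genes, Benjamini-Hochberg). By that rule 7 of the 10 genes were lower, against 10.1% of all genes, and 0 were higher, against 8.79% of all genes; 0 were higher at an unadjusted p under 0.05 as well. Without the size limit 9 of the 10 were lower, against 22.4% of all genes. The median difference of the 10 genes was -1.92 log2 units, and that of all genes was 0.01.

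**Figure D1:**
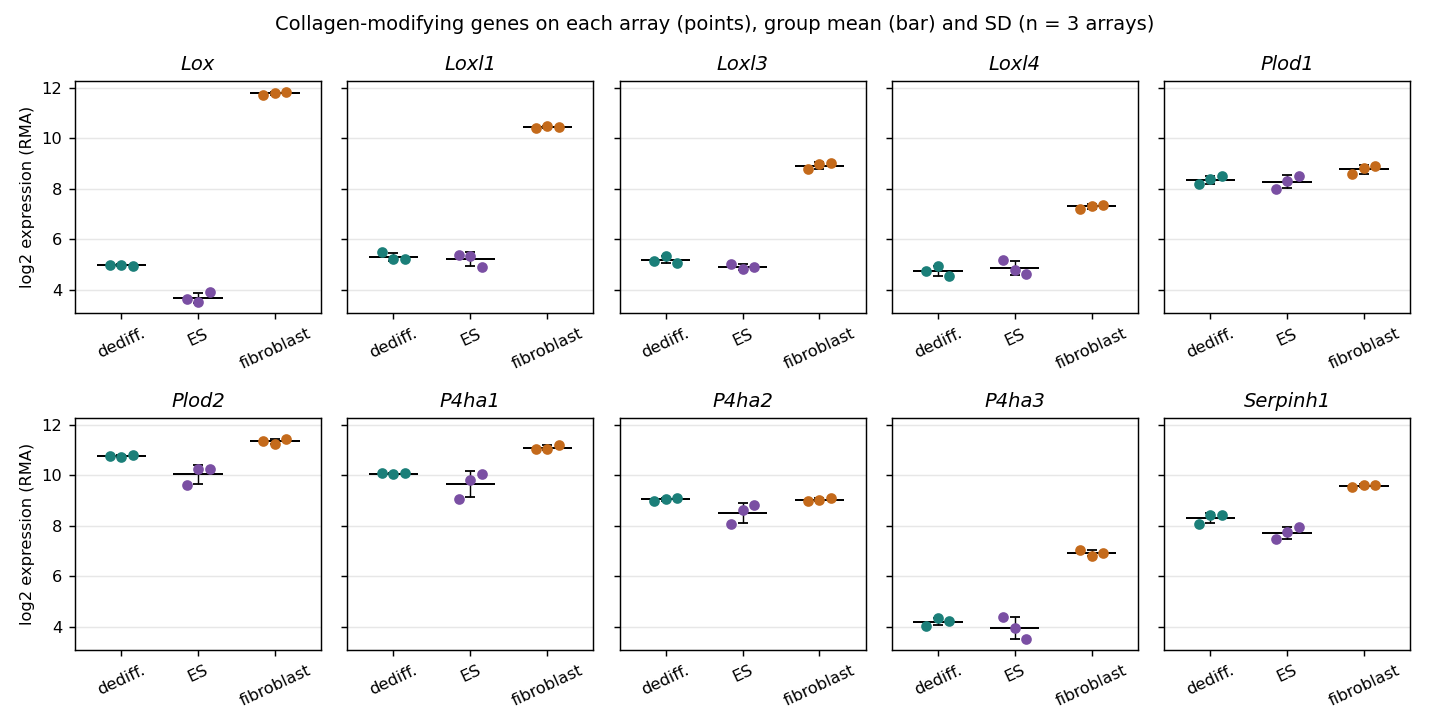
Log2 expression of the 10 collagen-modifying genes on each array (points), in dedifferentiated cells, ES cells and fibroblasts, with the group mean (bar) and SD (whiskers, n = 3 arrays). Lox lies at 4.94 to 5.0 in dedifferentiated cells, 3.53 to 3.90 in ES cells and 11.72 to 11.85 in fibroblasts, whereas P4ha2 overlaps between dedifferentiated cells and fibroblasts.

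Lox, the founding lysyl oxidase, had log2 values of 5.0, 5.0 and 4.94 in dedifferentiated cells, against 11.72, 11.79 and 11.85 in fibroblasts. The gap between the groups was far wider than the spread within either. Its difference of -6.81 log2 units (112-fold; 95% interval -7.02 to -6.59; limma adjusted p = 1.4e-12) ranked 8 among the falls of all 19938 genes. Loxl1, an oxidase tied to elastic fibres, had 5.49, 5.21 and 5.21 in dedifferentiated cells, against 10.41, 10.48 and 10.46 in fibroblasts. It fell by 5.15 log2 units (35.4-fold; 95% interval -5.43 to -4.87) and ranked 72.

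Loxl3 and Loxl4 belong to the branch of the family with scavenger receptor domains. Loxl3 had 5.16, 5.33 and 5.07 in dedifferentiated cells, against 8.78, 8.97 and 9.02 in fibroblasts, a difference of -3.74 log2 units (95% interval -3.95 to -3.52). Loxl4 had 4.74, 4.95 and 4.55 in dedifferentiated cells, against 7.21, 7.34 and 7.38 in fibroblasts, a difference of -2.56 (95% interval -2.87 to -2.25). No array of one group reached the values of the other for any of the 4 oxidases. The share of all genes without such overlap was not counted, so here and below a lack of overlap only describes the values. The second probe set of Loxl4 gave -2.87 for the same comparison. Loxl2, the remaining member of the family, was on a probe set assigned to more than 1 symbol and is not reported here.

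Plod1 and Plod2 differed by less than 1 log2 unit between these groups. Plod1, which hydroxylates lysines of the collagen helix, had 8.21, 8.38 and 8.50 in dedifferentiated cells, against 8.59, 8.82 and 8.92 in fibroblasts. The difference of -0.41 log2 units (95% interval -0.71 to -0.12; limma adjusted p = 0.025) was small beside those of the oxidases. Plod2, the enzyme for the short ends of the chains where cross-links form, had 10.75, 10.73 and 10.79 in dedifferentiated cells, against 11.35, 11.25 and 11.43 in fibroblasts. It differed by -0.59 (95% interval -0.93 to -0.26; limma adjusted p = 0.0066), short of the size required for a call. The groups of both genes did not overlap. Plod3, the third lysyl hydroxylase and also a glycosyltransferase, was not one of the 10 genes and fell by 1.60 (95% interval -1.90 to -1.31).

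The 3 alpha subunits of prolyl 4-hydroxylase differed from fibroblasts to unlike extents. P4ha1, the widely expressed form, had 10.08, 10.04 and 10.08 in dedifferentiated cells, against 11.03, 11.03 and 11.20 in fibroblasts. Its difference of -1.02 log2 units (95% interval -1.45 to -0.60; limma adjusted p = 0.00077) lay at the edge of the required size, and was -0.97 without fibroblast replicate 3 and -0.86 after another quantile normalization, both too small for a call. P4ha2 had 8.99, 9.04 and 9.10 in dedifferentiated cells, against 8.98, 9.01 and 9.10 in fibroblasts. These values overlapped almost entirely, with a difference of 0.01 (95% interval -0.32 to 0.35), so a change of 1 log2 unit in either direction lies outside the interval. P4ha3 had 4.03, 4.32 and 4.22 in dedifferentiated cells, against 7.04, 6.78 and 6.93 in fibroblasts, a fall of 2.73 (95% interval -3.12 to -2.33; limma adjusted p = 1.2e-07). Its dedifferentiated values are not shown to be above background, so the true difference may be larger. The shared beta subunit P4hb, which is also the general protein disulfide isomerase, averaged 11.37 in dedifferentiated cells and 11.93 in fibroblasts, a difference of -0.56 (95% interval -0.76 to -0.37).

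The promoters of the 3 alpha subunits are shown because these paralogues share a role but in dedifferentiated cells P4ha2 differed from fibroblasts by 0.01 log2 units, P4ha1 by -1.02 and P4ha3 by -2.73. The sequences are the RefSeq windows of GRCm38.p6, from 250 bases before to 50 bases after the transcription start. Windows of 6 of the 10 genes were examined. Lox, Loxl1, Loxl3 and Plod2 were not among them, so their promoters are not described, and whether they have such windows is not stated here. Capitals mark ACGTG and GCGTG on either strand, the core pentamers of the hypoxia response element, and P4ha1 and P4ha2 are known hypoxia-inducible genes. The window of P4ha1 lies at chr10:59323046-59323345 on the plus strand, that of P4ha2 at chr11:54100674-54100973 on the plus strand, and that of P4ha3 at chr7:100285270-100285569 on the plus strand.
P4ha1: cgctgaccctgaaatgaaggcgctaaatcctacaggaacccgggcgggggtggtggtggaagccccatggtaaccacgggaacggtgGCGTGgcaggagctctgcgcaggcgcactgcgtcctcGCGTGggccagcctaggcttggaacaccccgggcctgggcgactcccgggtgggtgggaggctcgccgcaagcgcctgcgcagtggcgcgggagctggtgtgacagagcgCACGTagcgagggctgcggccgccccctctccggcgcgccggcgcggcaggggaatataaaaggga
P4ha2: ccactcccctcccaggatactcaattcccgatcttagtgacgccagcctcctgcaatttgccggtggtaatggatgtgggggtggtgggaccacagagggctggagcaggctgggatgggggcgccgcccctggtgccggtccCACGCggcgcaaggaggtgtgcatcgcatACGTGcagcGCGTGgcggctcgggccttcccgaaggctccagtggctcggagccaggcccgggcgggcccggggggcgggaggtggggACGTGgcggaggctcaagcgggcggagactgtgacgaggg
P4ha3: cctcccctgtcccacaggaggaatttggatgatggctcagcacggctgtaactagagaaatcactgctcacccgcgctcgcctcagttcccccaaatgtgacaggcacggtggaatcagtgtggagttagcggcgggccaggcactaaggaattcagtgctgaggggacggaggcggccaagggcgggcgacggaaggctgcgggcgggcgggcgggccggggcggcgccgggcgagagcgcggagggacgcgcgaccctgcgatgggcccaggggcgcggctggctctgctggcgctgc

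P4ha1 held 1 ACGTG and 2 GCGTG, P4ha2 held 2 and 2, and P4ha3 held 0 of either. One or the other pentamer occurs in 43.8% of the 32851 promoter windows, ACGTG in 19.6% and GCGTG in 32.4%. Among the other windows, Plod1 held 0 ACGTG and 2 GCGTG, Loxl4 held 0 and 1, and Serpinh1 held 1 and 0. The GC box GGGCGG, counted on both strands, occurred 5 times in P4ha3, 4 times in P4ha2 and 2 times in P4ha1, and in 35.7% of all windows; TATAAA occurred in P4ha1 and Plod1 and in 13.6% of all windows. The 6 windows were 62.3% to 75.0% G and C, against a median of 52.7% over all windows. These matches are a description of letters and not of bound sites.

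**Figure D2:**
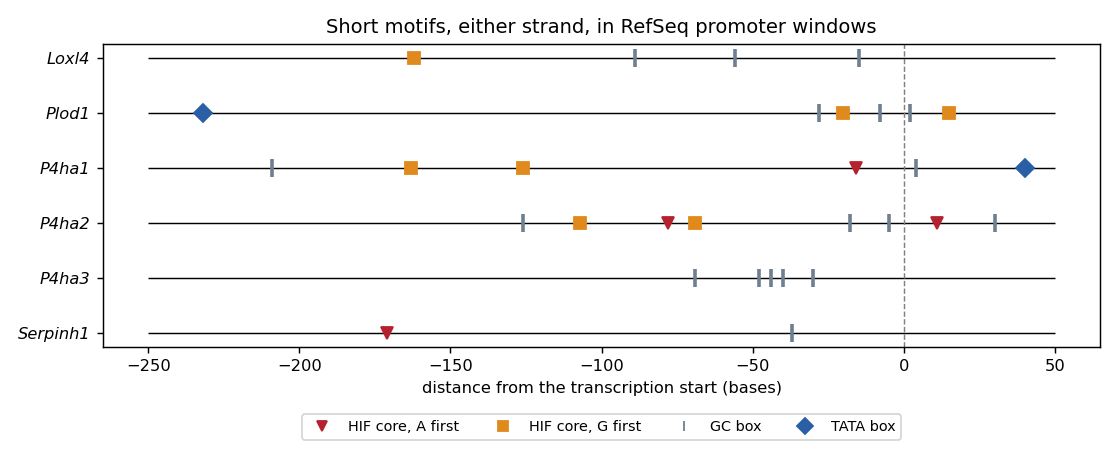
Positions of the hypoxia core pentamers, the GC box and TATAAA, on either strand, in the promoter windows of 6 genes. Distances are in bases from the transcription start. TATAAA, labelled TATA box, lies at 40 in P4ha1 and at -232 on the opposite strand in Plod1, and is a match of letters only. P4ha1 and P4ha2 carry hypoxia pentamers of both forms, while P4ha3 carries GC boxes alone.

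Serpinh1 had 8.08, 8.42 and 8.42 in dedifferentiated cells, against 9.53, 9.60 and 9.62 in fibroblasts. The chaperone fell by 1.28 log2 units (95% interval -1.56 to -1.0; limma adjusted p = 4.4e-06), a much smaller step than that of the oxidases. No dedifferentiated array reached the fibroblast values.

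**Figure D3:**
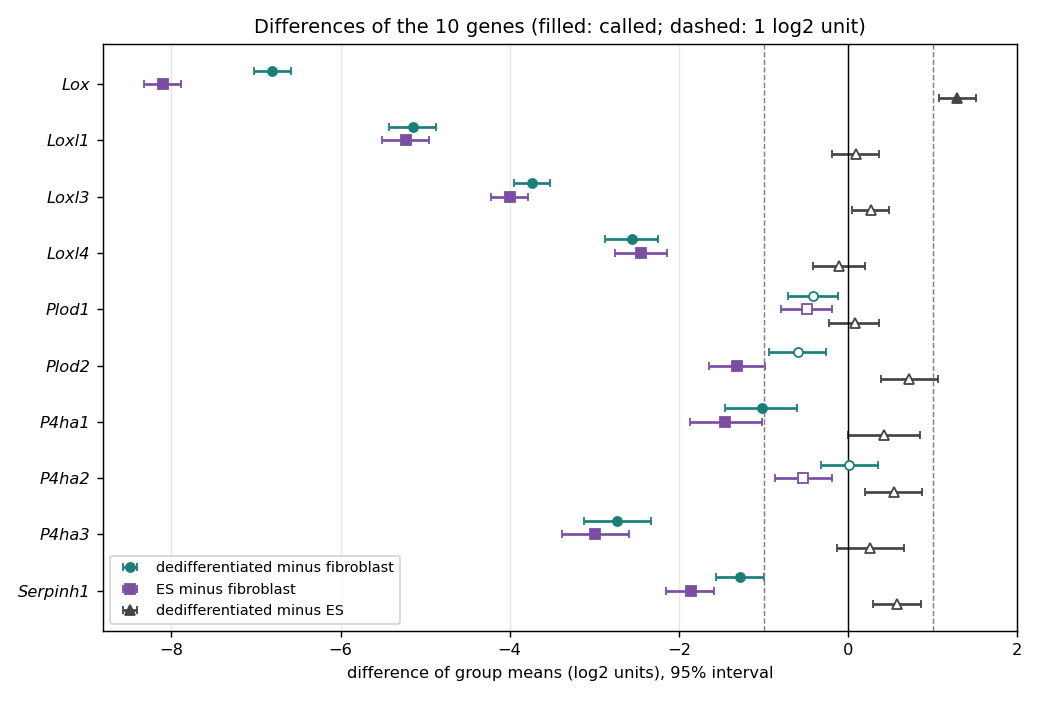
Differences of group means in log2 units with 95% intervals for the 10 genes in the 3 comparisons; filled symbols passed an adjusted p under 0.05 and 1 log2 unit, and dashed lines mark 1 log2 unit. The 4 oxidases and P4ha3 lie beyond -2 in both comparisons with fibroblasts, while P4ha2 lies at 0.01 for dedifferentiated cells and -0.53 for ES cells.

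The second comparison set ES cells against the same fibroblasts. The oxidases and P4ha3 were again far lower, and Plod2, P4ha1 and Serpinh1 were lower by more than 1 log2 unit. Of the 10 genes, 8 were called lower, against 10.4% of all genes, and 0 were called higher, against 8.85% of all genes; 0 were higher in limma at an unadjusted p under 0.05. Without the size limit all 10 were lower, against 22.9% of all genes. Their median difference was -2.16 log2 units, and that of all genes was 0.02. Both comparisons use the same 3 fibroblast arrays, so their values are set side by side without a measure of likeness.

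Lox had 3.62, 3.53 and 3.90 in ES cells, against the 11.72 to 11.85 of fibroblasts. It fell by 8.10 log2 units (95% interval -8.32 to -7.89; limma adjusted p = 4.2e-13). The ES values were of the size of those of Y-linked Eif2s3y in fibroblasts (3.45 to 3.69, on another probe set), so they are not shown to be above background, and the true difference may be larger. Loxl1 had 5.38, 5.36 and 4.91 in ES cells, a difference of -5.23 from fibroblasts (95% interval -5.51 to -4.95). Loxl3 had 5.04, 4.81 and 4.91, and differed by -4.00 (95% interval -4.22 to -3.78). Loxl4 had 5.18, 4.77 and 4.62 and differed by -2.45 (95% interval -2.76 to -2.14), with -2.82 for its second probe set. Each of the 4 oxidases was below fibroblasts on every ES array.

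Among the hydroxylases, P4ha3 had 4.37, 3.93 and 3.49 in ES cells and fell by 2.99 log2 units against fibroblasts (95% interval -3.38 to -2.59). P4ha1 had 9.07, 9.81 and 10.04 in ES cells, a difference of -1.45 (95% interval -1.87 to -1.02; limma adjusted p = 4.9e-05). P4ha2 had 8.08, 8.6 and 8.83 in ES cells and differed by -0.53 (95% interval -0.86 to -0.19; limma adjusted p = 0.012). ES replicate 1 was the lowest of its group for each of P4ha1 and P4ha2, and the highest for P4ha3. Plod2 had 9.59, 10.24 and 10.26 in ES cells and fell by 1.31 (95% interval -1.65 to -0.98). Plod1 had 8.01, 8.33 and 8.51 and differed by -0.49 (95% interval -0.79 to -0.19; limma adjusted p = 0.0095). Serpinh1, with 7.48, 7.73 and 7.96 in ES cells, fell by 1.86 (95% interval -2.15 to -1.58). None of the ES arrays reached the fibroblast values for any of these 6 genes, a description without the share of all genes beside it.

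The third comparison asked where dedifferentiated cells and ES cells differed. Lox was the only one of the 10 genes called, and it was higher in dedifferentiated cells. That count of 1 compares with 1.01% of all genes called higher, and 0 were called lower by limma, against 0.547% of all genes, with 0 lower at an unadjusted p under 0.05. Lox lay at 4.94 to 5.0 in dedifferentiated cells and 3.53 to 3.90 in ES cells, a difference of 1.29 log2 units (95% interval 1.08 to 1.51; limma adjusted p = 1e-05), whose size may be understated because the ES values are not shown to be above background. It stayed called without each of the 9 arrays in turn, at 1.22 to 1.40.

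Without the size limit, dedifferentiated cells exceeded ES cells in 4 of the 10 genes, against 11.2% of all genes. Besides Lox these were Plod2, at 0.72 log2 units (95% interval 0.39 to 1.06; limma adjusted p = 0.0058), Serpinh1 and P4ha2. Serpinh1 differed by 0.58 (95% interval 0.30 to 0.86; limma adjusted p = 0.0072). P4ha2 differed by 0.54 (95% interval 0.20 to 0.87; limma adjusted p = 0.027), and its adjusted p rose above 0.05 without dedifferentiated replicate 1, 2 or 3 or ES replicate 2, to 0.094 at most. The 3 genes did not overlap between the groups. P4ha1 differed by 0.43 (95% interval 0.00 to 0.85; limma adjusted p = 0.16), and ES replicate 3 lay within the range of the dedifferentiated arrays. For Loxl1 (95% interval -0.19 to 0.37), Loxl3 (0.05 to 0.48), Loxl4 (-0.42 to 0.20), Plod1 (-0.22 to 0.37) and P4ha3 (-0.13 to 0.66) the intervals held no difference as large as 1 log2 unit. For Loxl1, Loxl3, Loxl4 and P4ha3 the values of both groups are not shown to be above background. A narrow interval for these need not mean equal RNA.

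These smaller differences depended in size on ES replicate 1. That array was the lowest of its group for 5 of the 10 genes and for 36.8% of all genes. Its value for P4ha1 lay 0.86 log2 units below the mean of the other ES arrays, for Plod2 0.66 below and for P4ha2 0.64 below. Without it, the difference between dedifferentiated and ES cells was 0.14 for P4ha1, 0.50 for Plod2, 0.33 for P4ha2 and 0.46 for Serpinh1, while Lox stood at 1.26. Other differences grew: Loxl1 to 0.17, Loxl3 to 0.33 (limma adjusted p = 0.046) and P4ha3 to 0.48 (limma adjusted p = 0.034). Plod2, P4ha2 and Serpinh1 kept a limma adjusted p under 0.05 without that array (0.0013, 0.024 and 0.019). The spread of P4ha1 within groups was accordingly unequal, with an SD of 0.0211 in dedifferentiated cells, 0.508 in ES cells and 0.0957 in fibroblasts. Over all genes the median SD was 0.0762 in dedifferentiated cells, 0.127 in ES cells and 0.105 in fibroblasts.

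Markers of other cell types moved with this comparison too. Of 8 parietal endoderm genes, which mark cells rich in basement membrane collagen, 5 were called with dedifferentiated cells above ES cells: Thbd by 2.56, Sox17 by 1.79, Gata4 by 1.63, Sox7 by 1.40 and Gata6 by 1.36 log2 units. The summed linear level of that list was 4888 to 5734 in dedifferentiated cells, 2076 to 2991 in ES cells and 2002 to 2143 in fibroblasts. The sums rest largely on Lama1 in dedifferentiated cells (11.29) and ES cells (10.46), which at a difference of 0.83 was not called. Fibroblasts also had high values of Gata4 (9.16), Gata6 (8.83) and Thbd (8.78), and Thbd was lower in dedifferentiated cells (7.83). These genes are therefore not particular to endoderm in these samples. Without the size limit all 8 were higher. Of 10 fibroblast markers, 5 were higher in dedifferentiated cells against ES cells without the size limit and 0 lower: Ddr2 by 0.90, Thy1 by 0.85, Prrx1 by 0.77, S100a4 by 0.66 and Pdgfra by 1.37 log2 units. Of these 1, Pdgfra, passed the size limit, at 8.96 ± 0.11 and 7.59 ± 0.365 (SD, n = 3 each), and the summed level was 742 to 814 in dedifferentiated cells, 374 to 440 in ES cells and 8815 to 9544 in fibroblasts. Cnn1 of 6 smooth muscle markers and Cdh5 and Esam of 6 endothelial markers were higher in dedifferentiated cells as well. Summed smooth muscle markers reached 1196 to 1415 in dedifferentiated cells, 916 to 1037 in ES cells and 12815 to 14470 in fibroblasts, and summed macrophage markers 349 to 363 in dedifferentiated cells, 480 to 574 in ES cells and 694 to 874 in fibroblasts. The macrophage sums rest largely on Cd68, at 8.02 in dedifferentiated cells, 8.71 in ES cells and 6.97 in fibroblasts, and on Lyz2, at 3.20 in dedifferentiated cells, 3.34 in ES cells and 8.85 in fibroblasts. Without the size limit 6 of the 7 macrophage markers were lower in dedifferentiated and in ES cells against fibroblasts, and Cd68 was higher in both. The lowest fibroblast marker, Lum, averaged 2.84 in dedifferentiated cells and 2.94 in ES cells. The part of these cell markers in the differences of the 10 genes was not tested, and in such bulk samples fewer cells of a type and less RNA per cell cannot be told apart.

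The remaining machinery of collagen maturation was described through a list of 42 further genes, of which 38 were measured. In dedifferentiated cells against fibroblasts 15 were lower and 0 higher (0 higher in limma at an unadjusted p under 0.05), with a median of -0.76 log2 units. Over all genes 10.1% were called lower and 8.79% higher there, with a median of 0.01. In ES cells against fibroblasts 16 were lower and 0 higher (again 0 at an unadjusted p under 0.05), with a median of -0.66. The shares of all genes were 10.4% lower and 8.85% higher, with a median of 0.02. The 4 largest falls in dedifferentiated cells were those of Pcolce2, an enhancer of C-propeptide removal, at -3.42, the prolyl isomerase Fkbp14 at -3.33, Bmp1 at -3.10 and the prolyl 3-hydroxylase family member P3h3 at -2.73. Bmp1 is the protease that removes the C-propeptide of fibrillar procollagens and also activates Lox; it averaged 7.51 in dedifferentiated cells and 10.61 in fibroblasts. In ES cells the same 4 genes differed from fibroblasts by -3.90, -3.81, -3.33 and -2.80.

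**Figure D4:**
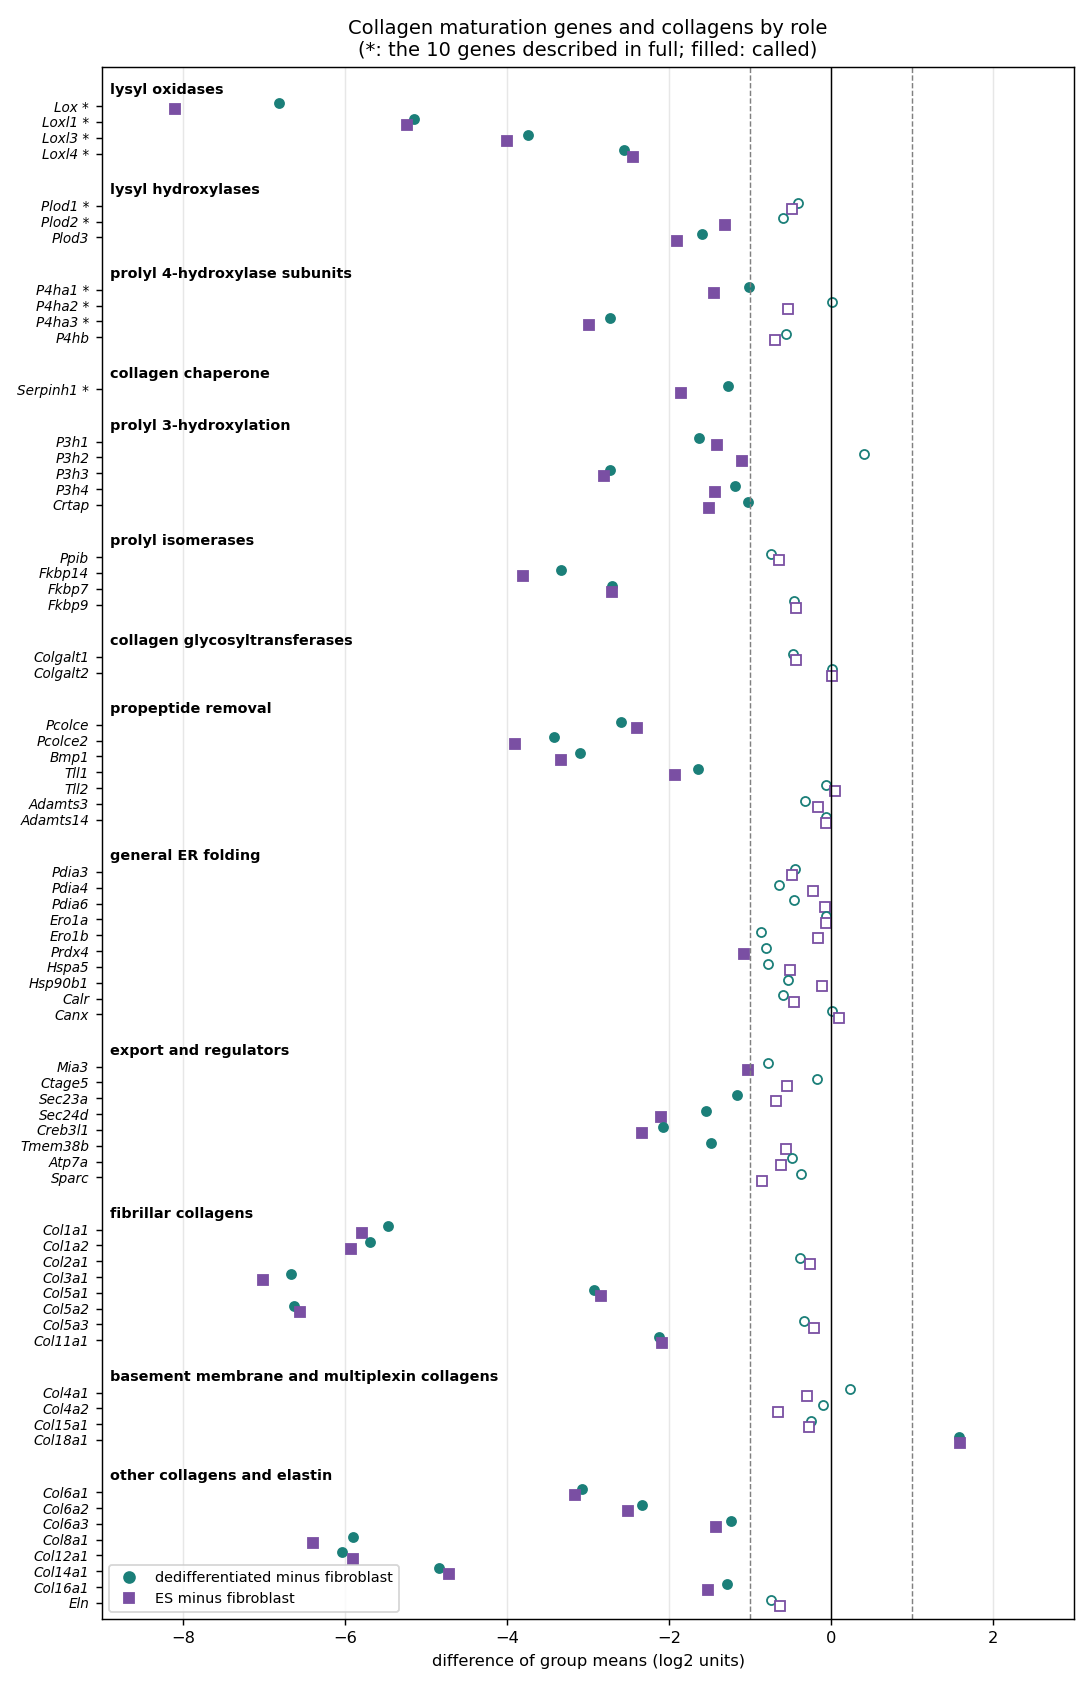
Differences from fibroblasts in log2 units for genes of collagen maturation and for collagens and elastin, grouped by role, in dedifferentiated cells (circles) and ES cells (squares); filled symbols were called and asterisks mark the 10 genes. Bmp1 lies at -3.10 in dedifferentiated cells and -3.33 in ES cells, the genes of general folding lie between -1.08 and 0.10, and Col4a1 lies at 0.23 in dedifferentiated cells and -0.30 in ES cells.

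Of 10 genes of general protein folding, which include the chaperones Hspa5 and Calr, 0 were called by limma in dedifferentiated cells, against 10.1% of all genes called lower, although 8 were lower without the size limit, with a median of -0.57. In ES cells 1 of the 10 was called lower, against 10.4% of all genes, and the median was -0.20. The shares called with the size limit are near those of all genes. Without that limit 22.4% of all genes were lower in dedifferentiated cells, and the median of all genes was 0.01. In ES cells 4 of the 10 folding genes were lower without it, against 22.9% of all genes. Of the 7 measured genes of propeptide removal, 4 were lower in both dedifferentiated and ES cells, with medians of -1.64 and -1.93. Of the 5 genes of prolyl 3-hydroxylation, 4 were lower in dedifferentiated cells and 5 in ES cells.

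P3h2, a prolyl 3-hydroxylase known to act on basement membrane collagen, was the 1 gene of this list called higher in dedifferentiated cells against ES cells, and limma called 0 lower (9 at an unadjusted p under 0.05). Over all genes 1.01% were called higher and 0.547% lower in that comparison, and 2929 of the 19938 genes were lower at that unadjusted p. The level of P3h2 was as follows. Its mean was 7.51 in dedifferentiated cells, 6.01 in ES cells and 7.11 in fibroblasts. Dedifferentiated cells exceeded ES cells by 1.5 log2 units (95% interval 1.04 to 1.95; limma adjusted p = 0.00044) and differed from fibroblasts by 0.40 (95% interval -0.06 to 0.85). No ES array reached the range of the dedifferentiated arrays for this gene.

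Of 20 substrate genes, the collagens and elastin, 13 were called lower and 1 higher in dedifferentiated cells against fibroblasts; their median difference was -2.24 log2 units. ES cells gave the same counts and a median of -2.30. Over all genes 10.1% were called lower and 8.79% higher in dedifferentiated cells, and 10.4% and 8.85% in ES cells. Col1a2 averaged 6.66 in dedifferentiated cells, 6.43 in ES cells and 12.36 in fibroblasts. Against fibroblasts, the fibrillar chain Col3a1 fell by 6.67 in dedifferentiated cells and by 7.01 in ES cells, and Col1a1 by 5.47 and 5.79 in these cells. Col5a2, a regulator of fibril diameter, fell by 6.63 in dedifferentiated cells and by 6.56 in ES cells, and Col12a1, which binds along fibrils, fell by 6.04 in dedifferentiated cells. The basement membrane chain Col4a1 averaged 10.39 in dedifferentiated cells, 9.86 in ES cells and 10.16 in fibroblasts, and differed from fibroblasts by 0.23 in dedifferentiated cells (95% interval -0.06 to 0.53) and by -0.30 in ES cells (95% interval -0.60 to -0.01; limma adjusted p = 0.087). Col18a1, the endostatin precursor of basement membranes, was the one substrate that rose, by 1.58 in dedifferentiated cells and 1.59 in ES cells. Of the 8 fibrillar collagens 6 were called lower in both comparisons, all but Col2a1 and Col5a3, and of the 4 basement membrane and multiplexin collagens limma called 0 lower (1 in dedifferentiated cells and 3 in ES cells at an unadjusted p under 0.05). For so few genes, 0 of 4 is near the share of all genes. At that unadjusted p 4789 of the 19938 genes were lower in dedifferentiated cells and 4879 in ES cells. Col5a3 differed from fibroblasts by -0.34 in dedifferentiated cells (95% interval -0.77 to 0.08) and by -0.21 in ES cells (95% interval -0.63 to 0.22). The cartilage collagen Col2a1 differed by -0.39 and -0.26, and elastin (Eln) by -0.74 and -0.63, in dedifferentiated and ES cells against fibroblasts.

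Between dedifferentiated and ES cells 0 of the 20 substrates were called by limma, with 6 higher and 0 lower at an unadjusted p under 0.05. At that unadjusted p 3157 of the 19938 genes were higher and 2929 lower. As 1.01% of all genes were called higher and 0.547% lower, 0 of 20 is near the share of all genes. Col4a1 differed by 0.54 (95% interval 0.24 to 0.83; limma adjusted p = 0.014), a size close to those of P4ha2 and Serpinh1. Col1a1 differed by 0.31 (95% interval 0.04 to 0.59; limma adjusted p = 0.11) and Col3a1 by 0.34 (95% interval 0.04 to 0.64; limma adjusted p = 0.11).

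The genes whose pattern over the 9 arrays lay closest to Lox and to Serpinh1 were found by the root mean square difference after each gene's fibroblast mean was subtracted. For Lox these were Il6 at 0.49, Aldh1a1 at 0.51, Serpina3n at 0.54, Dcn at 0.57 and Igfbp7 at 0.57 log2 units. Dcn, a collagen-binding proteoglycan, differed from fibroblasts by -6.16 in dedifferentiated cells and -7.36 in ES cells. For Serpinh1 they were Cd248 at 0.06, Akt1 at 0.10, Nid1 at 0.10, Snx33 at 0.11 and Gpx3 at 0.12 log2 units. Nid1, the basement membrane linker nidogen, differed by -1.41 in dedifferentiated cells and -1.80 in ES cells, against -1.28 and -1.86 for Serpinh1.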

How the data were processed

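The deposited values are log2 expression values of 9 Affymetrix Mouse Gene 1.0 ST arrays. RMA and Affymetrix Expression Console 1.1 are named for them, per the submitters' processing notes. RMA gives arrays a common distribution, which hides any change shared by the whole transcriptome. Array medians lay between 4.647 and 4.859. Of 35557 rows, 21789 had 1 symbol in the platform annotation, giving 19938 genes; the row with the highest mean stood for a gene. Titles decided the groups; for the fibroblasts, the source field mentions ES cells too.

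The 3 groups were fitted together with limma 3.58.1 under R 4.3.3; variances were moderated by empirical Bayes, and p-values were adjusted over all genes by Benjamini and Hochberg. The procedure was tested on simulated data. Counts of list genes are descriptions beside those of all genes. The genes and lists (collagen maturation, substrates, hypoxia targets and 7 sets of cell markers) were chosen with earlier results of these data known. Genes were named by rule: the 10 genes, up to 4 largest called rises and falls per list, a fixed set such as Bmp1 and Col4a1, the highest and lowest marker, and the 5 genes most like Lox and Serpinh1. The markers that differed between dedifferentiated and ES cells, Col5a3, the folding genes Hspa5 and Calr, Xist and Eif2s3y were named after their values were seen. Alternatives were 2 normalizations, 2 filters on dim genes, 2 ways to treat a gene's rows, 3 variance models, a fit of 2 groups, the replicate block, each array left out, and 4 thresholds.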

Additional observations from a re-analysis of the deposited data

How the results depend on the processing

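The counts of called genes for the 10 collagen-modifying genes, the maturation list and the substrates stayed within 1.5 times of those reported under both normalizations, both filters on dim genes, the mean of a gene's rows, the variance models and the fit of 2 groups. With all rows entered, 1 maturation gene (a second row of Pdia4) was higher in ES cells than in fibroblasts. Leaving out each array gave 0 to 1 maturation genes lower in dedifferentiated than in ES cells, the 1 being Tmem38b without ES replicate 1. Without a size limit, 31 and 28 maturation genes were lower in dedifferentiated and ES cells against fibroblasts, and between dedifferentiated and ES cells 4 of the 10 genes, 8 maturation genes and 3 substrates were higher and 6 maturation genes lower. Over all genes 22.4% and 22.9% were lower against fibroblasts without that limit. Between dedifferentiated and ES cells 2236 of the 19938 genes were higher and 2003 lower. At 1.5-fold, 2 of the 10 genes were higher and 2 maturation genes lower in that comparison. At 2 log2 units, 7 and 8 maturation genes and 5 of the 10 genes (ES cells) were lower against fibroblasts, 0 substrates were higher there, and 0 of the 10 genes and 0 maturation genes were higher in dedifferentiated cells when set against ES cells. At that limit the calls of P4ha1 and Serpinh1 in both comparisons, of Plod2 in ES cells and of Lox between dedifferentiated and ES cells were lost. The shares of all genes at 1.5-fold and at 2 log2 units were not counted, so the counts there only describe the lists. Differences near 0 changed sign when single arrays were left out: P4ha2 in dedifferentiated cells against fibroblasts ran from -0.017 to 0.044, and in dedifferentiated against ES cells Loxl1 ran from -0.067 to 0.17, Loxl4 from -0.23 to 0.052 and Plod1 from -0.059 to 0.19. With the replicate number as a block (replicate block), 7 and 8 of the 10 genes were lower in dedifferentiated and ES cells against fibroblasts, and no count moved by over 1.5 times. Same-numbered arrays deviated together at r = -0.204 to 0.25. With 3 arrays a group this cannot tell whether the numbers pair the samples, and the main fit used no pairing. The causes of these shifts were not tested, beyond the thresholds' own construction. The values carry no detection calls. Eif2s3y in fibroblasts (3.45 to 3.69) and Xist in dedifferentiated and ES cells (2.78 to 3.49), on other probe sets, give a rough level of background. Near it lay Lox (3.68) and P4ha3 (3.93) in ES cells, and P4ha3 (4.19) in dedifferentiated cells was not far above it. The second probe set of Loxl4 also lay near it, at 3.51 in dedifferentiated cells and 3.56 in ES cells. Loxl1, Loxl3 and Loxl4 averaged 4.75 to 5.30 in these cells, within or little above the array medians of 4.647 to 4.859. They are not shown to be above background either, so their falls from fibroblasts may be understated.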

Other observations

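Because P4ha1, P4ha2, Plod2 and Lox are known hypoxia-inducible genes, 21 measured hypoxia targets were also described. They split in both comparisons. Over all genes 8.79% were called higher and 10.1% lower in dedifferentiated cells against fibroblasts, and 8.85% and 10.4% in ES cells. In dedifferentiated cells against fibroblasts 4 were higher and 4 lower, with a median of -0.06 log2 units. Egln3, a prolyl hydroxylase that acts on HIF and not on collagen, rose by 2.26, the pyruvate dehydrogenase kinase Pdk1 by 1.99, the histone demethylase Kdm3a by 1.47 and the glucose transporter Slc2a1 by 1.29. The peptide hormone gene Adm fell by 6.44, Vegfa by 1.87, the glycolytic regulator Pfkfb3 by 1.44 and Egln1 by 1.12. In ES cells against fibroblasts 3 were higher (Slc2a1 by 1.85, Pdk1 by 1.74 and Egln3 by 1.22) and 3 lower (Adm at -6.58, Vegfa at -1.47 and Egln1 at -1.02), with a median of -0.02. Between dedifferentiated and ES cells 1 of the 21 was called: Egln3 averaged 8.20 in dedifferentiated cells and 7.16 in ES cells, a difference of 1.04 (95% interval 0.83 to 1.25; limma adjusted p = 3.5e-05). In that comparison 1.01% of all genes were called higher and 0.547% lower.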
